A study of Mus musculus with 19 samples.

Results

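The comparison described here is CCI-779 against placebo in the brains of SCA3 transgenic mice. Its changes rest on 10 of the 19 arrays of the series, 5 labelled SCA3 transgenic with CCI-779 and 5 labelled SCA3 transgenic with placebo. The arrays were chosen by those labels alone. All mice were male, and every SCA3 array of either arm carries the transgene, so the comparison does not address the transgene itself. CCI-779 (temsirolimus) was injected intraperitoneally, 20 mg/kg given 3 times weekly, for 6 weeks from 5 weeks of age, and the placebo mice were injected on the same schedule. The other 9 arrays are of wild-type (wt) mice, 5 with CCI-779 and 4 with placebo. They set the drug effect in wt beside that in SCA3. They also enter the filter on mean intensity and the estimate of the spread behind the SCA3 p-values. The promoter and line of the transgene, the part of the brain sampled and whether tissue was pooled are not given in the sources used here. Nothing in the labels ties each array to a mouse of its own, so the p-values speak only of the spread among the arrays, part or all of which may be technical.

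CCI-779 is an ester of rapamycin. It binds the immunophilin FKBP12, the product of Fkbp1a, and the complex inhibits mTOR complex 1, a kinase complex that promotes translation and ribosome production, drives lipid synthesis through the SREBP transcription factors and restrains autophagy. Spinocerebellar ataxia type 3 is a polyglutamine disease in which ataxin-3, a deubiquitinase encoded by Atxn3, carries an expanded glutamine repeat and forms aggregates. Autophagy clears aggregated protein, and the question the comparison addresses is what the mTOR inhibitor changes in the transcriptome of the SCA3 brain.

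Values are log2 of the deposited intensities, and a change is the mean of the CCI-779 arrays minus the mean of the placebo arrays on that scale, with its standard error (SE) from limma. A probe set was tested if its mean log2 intensity over the 19 arrays was at least 4, and it passed if limma's p, adjusted by the Benjamini-Hochberg method over all tested probe sets, was under 0.05. A gene is read from its brightest tested probe set, and "rose" and "fell" are used only for genes that passed. Arrays are named by the replicate number in their labels.

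CCI-779 replicates 2 and 5 stood apart from the other 3 arrays of their group. Their scores on the second principal component of all tested probe sets were 42.4 and 39.2, against −1.96 to 2.47 for replicates 1, 3 and 4. The SD of the log2 differences between replicates 2 and 5 was 0.227, close to the 0.225 to 0.288 among replicates 1, 3 and 4, whereas a pair with 1 array from each side differed by 0.359 to 0.401. For actin, the 3′ probe set minus the 5′ probe set on the log2 scale, which reflects RNA integrity, was 0.96 and 0.88 in replicates 2 and 5, 1.44 to 1.55 in the other 3 CCI-779 arrays and 1.26 to 1.33 in the placebo arrays. With all 5 arrays the actin measure averaged 1.28 ± 0.33 under CCI-779 and 1.30 ± 0.03 for the placebo arrays (mean ± SD, n = 5 each, exact two-sided permutation p = 0.873). With replicates 2 and 5 left out it was higher under the drug by 0.22 (exact permutation p = 0.0179, the smallest that 3 against 5 arrays allows). The arrays left out had the lowest values of this same measure, so nothing is read from that p. Other array measures moved with the drug. The hybridisation spike-ins, transcripts added in fixed amounts, averaged 10.55 under CCI-779 and 11.36 under placebo, and the labelling spike-ins averaged 4.96 and 5.71. The 3′ minus 5′ difference of GAPDH averaged −0.35 under CCI-779 and −0.52 under placebo. For these 3 measures the arrays of the arms did not overlap (exact permutation p = 0.00794 each, the smallest that 5 against 5 allows, and 0.0132 adjusted over 5 measures). The part of RNA integrity, spike-in level and these 2 arrays in the results below was not tested, so counts and leading genes are given with and without replicates 2 and 5, and "in both fits" means past the threshold with all arrays and without this pair.

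Of 20473 tested probe sets, 3107 passed (15.2%), with 2094 higher (10.2%) and 1013 lower (4.95%) under CCI-779. Without replicates 2 and 5 there were 1203 (5.88%), with 914 higher (4.46%) and 289 lower (1.41%). Leaving out wt CCI-779 replicate 1 as well, which also stood apart and enters only through the shared estimate of the spread, raised that count to 2335, with 1510 higher and 825 lower. Over every non-control probe set, 45037 in all, 2177 passed (4.83%), with 1483 higher (3.29%) and 694 lower (1.54%). The count of 3107 fell to 1956 when CCI-779 replicate 2 alone was left out and to 2670 with the 10 SCA3 arrays only. At the level of genes, 1151 of 10454 rose (11.0%) and 637 fell (6.09%). With the pair left out, 668 passed (6.39%), of which 501 rose (4.79%) and 167 fell (1.6%), and 460 (4.4%) and 156 (1.49%) of these were among the genes called with all arrays. The changes were mostly small: the median fold was 1.36 among the genes that rose and 1.25 among those that fell, and 657 probe sets rose (3.21%) and 125 fell (0.611%) by at least 1.5-fold. The balance of directions followed the scaling of the arrays. Of the genes called, 64.4% were higher as deposited, 50.2% after quantile normalization again and 41.7% with each array centred on its median, although these scalings moved the median change of all genes only from 0.00 to −0.03 and −0.06. With arrays centred, 877 of the 10454 genes rose and 1227 fell. These are the background for the counts given below with arrays centred. Among the genes that rose, replicates 2 and 5 were the 2 highest CCI-779 arrays in 523 (45.4%), and among those that fell they were the 2 lowest in 317 (49.8%). All 1151 and all 637 kept their sign without the pair.

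The 15 genes with the largest rises among those called with and without replicates 2 and 5 rose by 2.58- to 7.94-fold with all arrays, and all 15 changes were smaller without that pair, at 0.94 to 2.37 on the log2 scale. Fam163b, which encodes a predicted membrane protein, rose most. It read 7.49, 9.32, 7.20, 7.82 and 8.79 in CCI-779 replicates 1 to 5 and 4.99, 4.95, 5.53, 5.18 and 5.02 in placebo replicates 1 to 5. The groups lay far apart, and the 2 highest values were those of replicates 2 and 5. The change was 2.99 (SE 0.43, adjusted p = 0.000491), or 2.37 without that pair (adjusted p = 0.00621). Atn1 encodes atrophin-1, a transcriptional corepressor with a polyglutamine tract of its own, whose expansion causes dentatorubral-pallidoluysian atrophy. Its values were 7.75, 9.47, 7.52, 7.97 and 9.57 under CCI-779 and 6.07, 5.85, 6.37, 6.03 and 5.95 under placebo, again without overlap. The change of Atn1 was 2.40 (SE 0.34, adjusted p = 0.000418), and 1.69 without replicates 2 and 5 (adjusted p = 0.000975). Polr2a, the largest subunit of RNA polymerase II, read 7.91, 9.05, 7.44, 7.92 and 9.27 against 6.75, 6.61, 6.88, 6.71 and 7.14. It rose by 1.501 (SE 0.31, adjusted p = 0.00428) and by 0.94 without the pair (adjusted p = 0.038).

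Rph3a, which encodes rabphilin-3A, a Rab3 effector on synaptic vesicles, was higher by a similar amount in every treated array. Its values were 11.53, 11.77, 11.25, 11.74 and 11.85 under CCI-779 and 10.26, 9.94, 10.40, 10.18 and 10.37 under placebo, and replicates 2 and 5 lay close to the others. Rph3a rose by 1.40 (SE 0.12, adjusted p = 1.41e-05), by 1.28 without replicates 2 and 5 (adjusted p = 0.000307), and both of its tested probe sets passed. Mypop, a Myb-related transcription factor, was at the other extreme. It read 5.05, 7.30, 5.50, 6.41 and 7.94 against 4.59, 4.44, 4.52, 4.57 and 4.90, and its change of 1.84 (adjusted p = 0.0067) was 1.05 without the pair (adjusted p = 0.0428). The other 10 named risers were the ubiquitin ligases Rnf208 (1.71) and Trim32 (1.45), the endocytic adaptor Epn1 (1.55), the adhesion receptor Adgrg1 (1.48), the netrin receptor Unc5a (1.46), the mitochondrial carrier Slc25a23 (1.44), the presynaptic adaptor Apba1 (1.42), the microtubule plus-end protein Mapre3 (1.42), the neurite outgrowth factor Gprin1 (1.41) and the focal adhesion protein Tns2 (1.37). The arms did not overlap for any of the 15 (8.82% of all genes had 5 treated arrays above 5 controls), which follows closely from how the 15 were chosen. In 14 of them replicates 2 and 5 were the highest.

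Among the genes called with and without the pair, the 15 largest falls were of 1.62- to 2.21-fold. The pair was the lowest in 5 of these 15, against 49.8% of all genes that fell, and in 7 of the 15 the change was smaller without it. These 15 had to pass without the pair and the genes behind the 49.8% did not, so nothing is read from that difference. Gpr34, a microglial receptor, fell by more with all arrays but did not pass without the pair. Bdnf encodes brain-derived neurotrophic factor. It read 6.30, 5.67, 6.997, 6.49 and 7.06 under CCI-779 and 7.59, 7.17, 7.13, 7.77 and 7.80 under placebo, and the highest treated array stayed just under the lowest control. Bdnf fell by 0.99 (SE 0.21, adjusted p = 0.00519), with a change of −0.90 without the pair (adjusted p = 0.0101). Of its 2 tested probe sets the other did not pass. Rasgrp3, an exchange factor for Ras proteins, read 5.94, 6.30, 6.198, 5.94 and 6.33 against 7.06, 7.08, 6.93, 7.23 and 6.83, with replicates 2 and 5 the highest treated arrays here. Its change was −0.88 (SE 0.13, adjusted p = 0.000491) and −0.998 without the pair (adjusted p = 0.00207). Haus3, a subunit of the augmin complex that branches microtubules, read 5.49, 6.12, 6.04, 6.05 and 6.12 against 6.56, 6.61, 6.70, 6.51 and 6.90 and changed by −0.69 (adjusted p = 0.00134), or −0.80 without the pair (adjusted p = 0.00493).

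Myelin and sterol synthesis each gave several of these 15. Ugt8a (−0.75), which makes the myelin lipid galactosylceramide, Mal (−0.70) and Opalin (−0.69) belong to myelin, and Fdps (−0.93) and Nsdhl (−0.78) to sterol synthesis. The rest were the ubiquitin ligase Rnf217 (−1.14), the protease inhibitor Serpinb1a (−1.01), the fatty acid elongase Elovl1 (−0.98), thiopurine methyltransferase Tpmt (−0.84), the phosphatase Dusp19 (−0.82), Abhd14a (−0.76) and the kelch-like protein Klhl4 (−0.75). The arms overlapped for Rnf217, Serpinb1a and Ugt8a and did not for the other 12 (4.34% of all genes had every treated array below every control), from which, given how they were chosen, nothing is read. The call of Serpinb1a was lost without placebo replicate 3, 4 or 5 (adjusted p up to 0.0631).

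**Figure D1:**
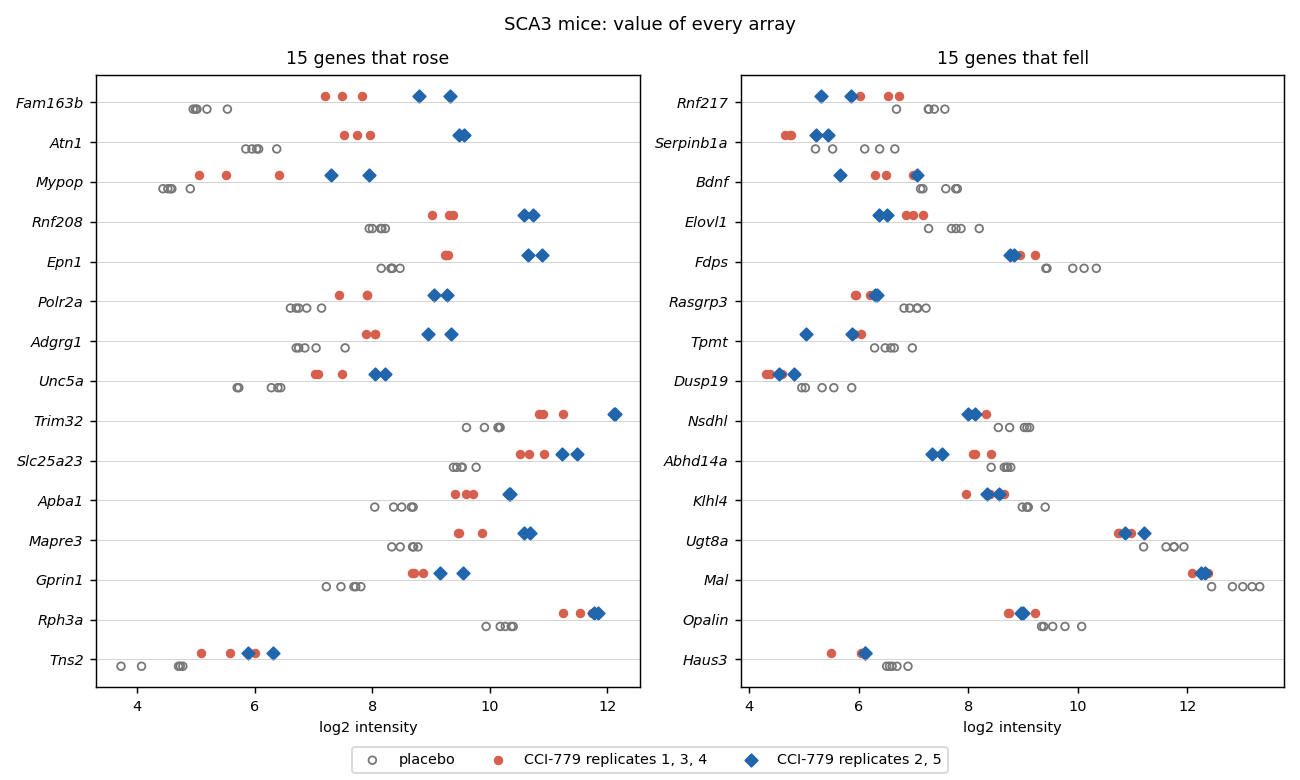
The plots give log2 intensity on the x axis for each SCA3 array, with open circles for placebo, dots for CCI-779 replicates 1, 3 and 4 and diamonds for CCI-779 replicates 2 and 5. Each row is 1 of the 15 genes with the largest rise (left) or the largest fall (right) among those called with and without that pair. The diamonds are the highest treated values in 14 of 15 rows on the left and the lowest in 5 of 15 on the right.

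The transcripts of the drug's own target changed little. Where 11.0% of all genes rose and 6.09% fell, 1 of 17 tested genes of the mTOR complexes and the FKBP family rose, 0 fell and 16 did not pass. Their median change was 0.07 where that of all genes was 0.00. The 1 that rose was Fkbp8, an FKBP-type protein of the mitochondrial membrane, at 0.48 (SE 0.11, adjusted p = 0.00802), and it did not pass without replicates 2 and 5 (0.30, adjusted p = 0.075). Mtor itself read 9.99, 9.94, 9.78, 10.09 and 9.80 under CCI-779 and 9.68, 9.77, 9.67, 9.80 and 9.77 under placebo. These values overlap, and the difference was 0.18 with an SE of 0.09 (adjusted p = 0.166). In wt it was 0.31 (adjusted p = 0.0357), or 0.25 (adjusted p = 0.0815) without wt CCI-779 replicate 1. Rptor, the scaffold that defines complex 1, differed by 0.09 (adjusted p = 0.56), and Rictor, that of complex 2, by 0.12 (adjusted p = 0.419). Fkbp1a, the receptor of the drug, differed by −0.19 (adjusted p = 0.0795), while 1 of its other tested probe sets passed as lower. The complex 1 inhibitor subunits Akt1s1 (0.46, adjusted p = 0.196) and Deptor (0.03) and the shared subunit Mlst8 (0.20) did not pass.

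Upstream of complex 1 the members moved in both directions. Of 38 tested genes, 5 rose and 5 fell, against 11.0% and 6.09% of all genes. Without replicates 2 and 5 there were 4 and 0, against 4.79% and 1.6% of all genes. The risers belong to the growth factor branch. The kinase Akt1 read 10.13, 10.67, 10.09, 10.28 and 10.62 under CCI-779 and 9.51, 9.80, 9.68, 9.71 and 9.77 under placebo, with no overlap, and rose by 0.66 (SE 0.12, adjusted p = 0.00157). The receptor Igf1r (0.60) and the phosphoinositide 3-kinase regulatory subunit Pik3r1 (0.42) also rose, as did its relative Pik3r2, which was chosen after its value was seen, and these 4 passed without the pair. Tsc2, a subunit of the complex that switches off Rheb, rose by 0.39 with all arrays but not without the pair (0.29, adjusted p = 0.0928). Among those that fell, the Rag GTPase Rragd (−0.41) and the folliculin partner Fnip1 (−0.27) belong to the amino acid branch at the lysosome. The other 3, also chosen after their values were seen, were Flcn and Lamtor1 of the same branch and the kinase Pdpk1, and none of these 5 passed without the pair. The other tested probe set of Pdpk1 passed the opposite way (0.30 against −0.28 on the brighter). Tsc1 (0.00), Rheb (−0.09) and Rraga (0.23) did not pass.

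In the translation arm below complex 1, 4 of 21 tested genes rose and 0 fell, where 11.0% and 6.09% of all genes did. Elongation factor Eef2, whose kinase is restrained by this arm, read 12.74, 13.18, 12.82, 12.88 and 13.12 against 12.27, 12.52, 12.32, 12.34 and 12.44, and the arms did not overlap. It rose by 0.57 (SE 0.09, adjusted p = 0.000814), and the initiation scaffold Eif4g3 rose by 0.52 (adjusted p = 0.00298). Both also passed without replicates 2 and 5. The S6 kinase Rps6kb2 (0.66) and the neuronal elongation factor Eef1a2 (0.33) passed only with all 5 arrays, and Eef1a2 was lost without CCI-779 replicate 2 (adjusted p = 0.0509). Central members of this arm did not pass. Eif4ebp1 was near the lower limit of the tested range (mean 4.15) and differed by −0.03, Rps6 differed by 0.14 (adjusted p = 0.142) and Eif4e by −0.10 (adjusted p = 0.582). Rps6kb1 was not analysed here. These arrays measure transcripts, not phosphorylation.

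Among 36 tested genes of the autophagy machinery, 7 rose and 1 fell, where 11.0% and 6.09% of all genes did, with a median change of 0.11, and with arrays centred on their median the counts were 4 and 3. Ulk1, the kinase that starts autophagy and is held off by complex 1, read 10.18, 10.22, 9.53, 9.95 and 10.15 in CCI-779 replicates 1 to 5 and 9.08, 9.04, 9.34, 9.20 and 9.27 in placebo. All treated arrays were above all controls, and here replicates 2 and 5 did not stand apart. Ulk1 rose by 0.82 (SE 0.13, adjusted p = 0.000908), by 0.70 without the pair (adjusted p = 0.0152), and on both of its tested probe sets. It was the 1 gene of this list that passed without the pair. With all arrays, Atg9a, the transmembrane protein of early autophagosomes, rose by 0.58, Wipi2 by 0.48, Rubcn, a brake on autophagosome maturation, by 0.58 and Atg13, the partner of Ulk1, by 0.38. The other 2 that rose, chosen after their values were seen, were Map1lc3a and Atg5. Map1lc3b, which is lipidated onto autophagosomes, fell by 0.24 (adjusted p = 0.0132). Becn1 (0.22), Atg7 (0.00) and the cargo receptor Sqstm1 (−0.14) did not pass. The calls of Wipi2, Rubcn and Atg13 were each lost without CCI-779 replicate 2 (adjusted p = 0.0621, 0.0725 and 0.114), and each also without some other single arrays.

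Lysosomal genes gave 1 riser and 3 fallers of 38, with a median of −0.03, where 11.0% and 6.09% of all genes rose and fell. The counts were 1 and 1 without the pair (4.79% and 1.6% of all genes). With arrays centred they were 1 and 7 (877 and 1227 of all 10454 genes). Asah1, acid ceramidase, read 9.81, 9.48, 9.72, 9.91 and 9.50 against 10.11, 10.07, 10.01, 10.17 and 10.14 and fell without overlap by 0.41 (SE 0.08, adjusted p = 0.00228), also without the pair (−0.29, adjusted p = 0.0223). Grn, progranulin, changed by −0.34 and the sterol carrier Npc2 by −0.38, both past the threshold with all arrays only, and the dimmest of the 3 tested probe sets of Grn passed as higher in both fits (0.30, adjusted p = 0.0143). The proton pump subunit Atp6v0d1 rose by 0.32 in both fits. Tfeb, the transcription factor of lysosomal genes that complex 1 keeps out of the nucleus, differed by 0.05 (adjusted p = 0.669), Lamp1 by 0.16 and Ctsd by −0.04.

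Sterol synthesis held the largest share of falls among the gene lists. The pathway makes mevalonate from acetyl-CoA, builds squalene from it, closes squalene to lanosterol and trims that to cholesterol, and its genes share activation by SREBP2, which binds sterol response elements next to sites for NF-Y (CCAAT) and Sp1 (GC boxes). Of the 6 tested enzymes up to farnesyl and geranylgeranyl diphosphate, 3 fell and 0 rose, and of the 11 from squalene to cholesterol, 9 fell and 0 rose, where 6.09% of all genes fell. The median changes were −0.26 and −0.50. Without replicates 2 and 5 the medians were −0.28 and −0.56, with 1 and 6 enzymes called, where 1.6% of all genes fell.

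RefSeq promoter windows were at hand for 14 of the 17 tested enzymes, and the 250 bases before the start are printed for 4 of them because these enzymes stand at the entry of the pathway (Hmgcs1) and at steps that remove methyl groups from lanosterol (Cyp51, Msmo1, Nsdhl). Coordinates are of GRCm38.p6, and the sequence runs 5′ to 3′ on the gene's strand. Capitals mark matches to TCACNNCAC, a loose form of the core of a sterol response element, and to CCAAT, on either strand (a CCAAT on the other strand reads ATTGG). In Msmo1 a match of each overlap.
Hmgcs1, chr13:119690101-119690350, plus strand: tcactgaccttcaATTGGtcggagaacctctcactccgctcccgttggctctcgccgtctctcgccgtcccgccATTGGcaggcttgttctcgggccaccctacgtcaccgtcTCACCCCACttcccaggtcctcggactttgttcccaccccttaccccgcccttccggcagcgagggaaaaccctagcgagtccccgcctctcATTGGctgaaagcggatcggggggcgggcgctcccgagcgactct
Cyp51, chr5:4104698-4104947, minus strand: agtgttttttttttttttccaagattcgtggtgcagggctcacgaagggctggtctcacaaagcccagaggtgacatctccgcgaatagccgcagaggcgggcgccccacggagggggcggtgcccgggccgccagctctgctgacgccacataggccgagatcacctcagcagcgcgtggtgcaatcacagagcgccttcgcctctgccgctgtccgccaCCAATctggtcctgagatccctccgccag
Msmo1, chr8:64733579-64733828, minus strand: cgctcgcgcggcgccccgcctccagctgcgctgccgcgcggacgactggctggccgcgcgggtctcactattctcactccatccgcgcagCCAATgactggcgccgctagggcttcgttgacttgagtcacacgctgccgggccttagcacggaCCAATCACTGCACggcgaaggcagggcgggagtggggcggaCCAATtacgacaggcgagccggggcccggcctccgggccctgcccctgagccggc
Nsdhl, chrX:72918271-72918520, plus strand: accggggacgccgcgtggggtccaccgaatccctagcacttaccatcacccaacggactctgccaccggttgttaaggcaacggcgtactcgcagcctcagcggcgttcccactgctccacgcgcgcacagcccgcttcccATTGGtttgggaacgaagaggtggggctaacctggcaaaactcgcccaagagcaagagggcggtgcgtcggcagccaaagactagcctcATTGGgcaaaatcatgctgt
TCACNNCAC was found in 4 of the 17 windows of the sterol enzymes (23.5%), those of Hmgcs1, Msmo1, Hsd17b7 and Dhcr7, against 2.99% of the 11091 windows of all tested genes. The stricter form TCACNCCAC, also searched, was in 1 of the 17 (5.88% against 1.01%), that of Hmgcs1. CCAAT was found in 14 windows (82.4% against 34.6%), and the GC box GGGCGG, searched on both strands, in 13 (76.5% against 57.8%). CCAAT and GGGCGG stood together in 12 windows, 70.6% against 19.8%. Over all 32851 windows TCACNNCAC was in 3.11%, CCAAT in 33.8% and GGGCGG in 32.7%. Among all 1282 windows of the genes that rose CCAAT was in 30.2%, and among the 672 windows of those that fell in 36.8%. A match describes these letters and does not show a bound site.

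In pathway order, Hmgcs1, the synthase that commits acetyl groups to the pathway, fell by 0.43 (SE 0.13, adjusted p = 0.0327). The mevalonate kinases Mvk (−0.05, adjusted p = 0.742) and Pmvk (−0.10, adjusted p = 0.428) did not pass. Idi1, which isomerises the isoprene unit, read 9.02, 9.02, 9.29, 9.43 and 9.21 under CCI-779 and 9.57, 9.35, 10.20, 10.38 and 10.23 under placebo and fell by 0.75 (adjusted p = 0.0113), with the treated and control values overlapping through placebo replicate 2. Fdps, farnesyl diphosphate synthase, read 8.83, 8.76, 8.94, 9.22 and 8.83 against 9.42, 9.44, 10.11, 9.91 and 10.34 without overlap. Its fall of 0.93 (SE 0.17, adjusted p = 0.00218) was the largest in the pathway and was the 1 call of these 6 enzymes without the pair (−0.84, adjusted p = 0.0256). Ggps1, on the side branch to geranylgeranyl diphosphate, differed by 0.11 (adjusted p = 0.222).

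On the branch committed to sterols, Fdft1, squalene synthase, fell by 0.28 (adjusted p = 0.031) and the epoxidase Sqle, which read 8.37, 8.17, 8.47, 8.75 and 8.18 against 8.95, 8.57, 9.43, 9.28 and 9.23, by 0.70 (adjusted p = 0.00745). Lss, which closes the ring to lanosterol, read 7.33, 7.53, 7.45, 7.51 and 7.33 against 8.06, 7.68, 8.20, 8.27 and 8.02 and fell without overlap by 0.61 (adjusted p = 0.0136). Cyp51, the lanosterol demethylase, read 8.92, 8.86, 9.04, 9.05 and 9.28 against 9.47, 9.27, 9.94, 9.90 and 9.96, with CCI-779 replicate 5 just above placebo replicate 2, and fell by 0.68 (SE 0.14, adjusted p = 0.00399). Msmo1 read 10.03, 10.20, 10.25, 10.29 and 10.33 against 10.67, 10.41, 10.87, 10.89 and 11.17, all treated arrays below all controls, and fell by 0.58 (adjusted p = 0.00339). Nsdhl, which acts after Msmo1, read 8.07, 7.99, 8.11, 8.33 and 8.12 against 8.76, 8.55, 9.07, 9.02 and 9.12 and had the smallest p of the pathway, with a fall of 0.78 (SE 0.12, adjusted p = 0.000598) that was −0.73 without the pair (adjusted p = 0.00911). Placebo replicate 2 was the lowest control for Idi1, Sqle, Lss, Cyp51, Msmo1 and Nsdhl. The late enzymes Hsd17b7 (−0.40), Sc5d (−0.40) and Dhcr7 (−0.50) fell as well. Tm7sf2 (−0.23, adjusted p = 0.143) and Ebp (−0.29, adjusted p = 0.23), the 2 that did not pass, were chosen after their values were seen. Without replicates 2 and 5 the 6 called were Nsdhl, Msmo1, Cyp51, Dhcr7, Hsd17b7 and Sc5d. Single arrays decided some of these calls: that of Hmgcs1 was lost without any 1 of 7 arrays (adjusted p up to 0.0852, without placebo replicate 4), that of Fdft1 without any of 5 (up to 0.0762, without placebo replicate 4), that of Sc5d without any of 13 (up to 0.106, without placebo replicate 3) and that of Hsd17b7 without placebo replicate 4 (adjusted p = 0.0666).

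**Figure D2:**
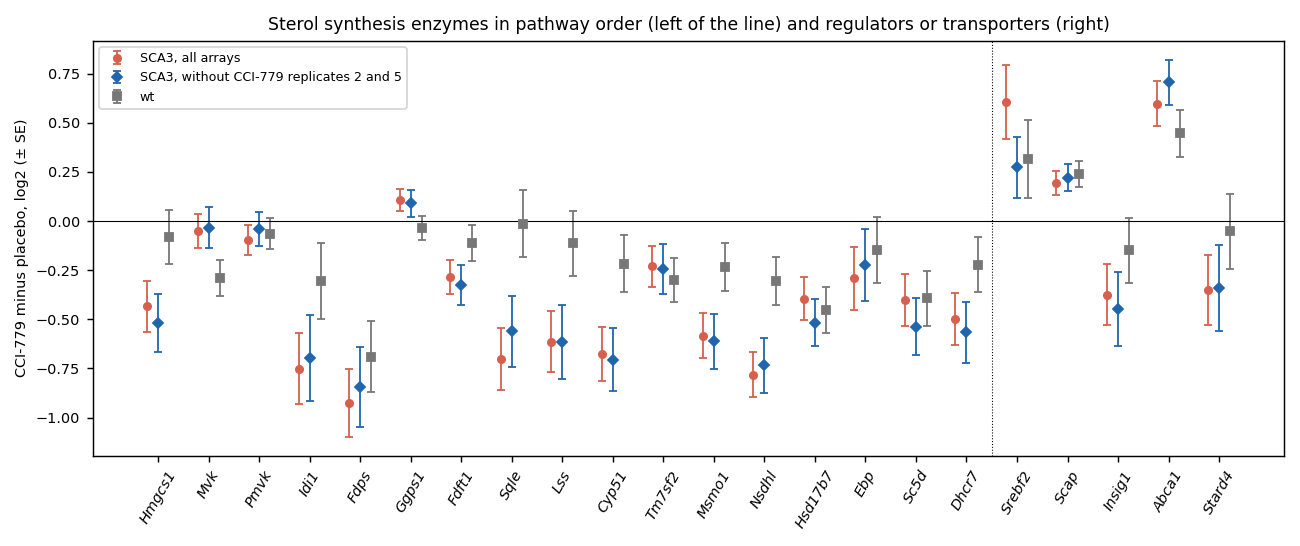
The plot gives the change under CCI-779 on the log2 scale with its SE for sterol synthesis enzymes in pathway order, left of the dotted line, and for regulators and transporters, right of it. Circles are SCA3 mice with all arrays, diamonds SCA3 mice without CCI-779 replicates 2 and 5, and squares wt mice, and in SCA3 every enzyme from Fdft1 to Dhcr7 lies below 0 in both fits, with Nsdhl at −0.78 and −0.73.

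Of 14 tested genes of sterol regulation and transport, 4 rose and 0 fell (3 and 1 with arrays centred), where 11.0% and 6.09% of all genes did. Abca1, which exports cholesterol from cells, read 10.18, 10.09, 10.02, 10.29 and 9.69 under CCI-779 and 9.56, 9.72, 9.46, 9.33 and 9.21 under placebo, overlapping only through CCI-779 replicate 5. It rose by 0.60 (SE 0.11, adjusted p = 0.00266) and by 0.70 without the pair (adjusted p = 0.00493), the 1 gene of this list to pass there. Srebf2, which encodes SREBP2, rose by 0.60 (adjusted p = 0.0391) with all arrays and differed by 0.27 without the pair (adjusted p = 0.324). The lipoprotein receptor Lrp1 rose by 0.39 and the SREBP escort Scap by 0.19. Srebf1 differed by 0.23 (adjusted p = 0.402) and read 7.94, 7.995, 8.19, 9.16 and 7.86, where replicate 4 was far above the other treated arrays. The SREBP targets Insig1 (−0.38, adjusted p = 0.113) and Stard4 (−0.35, adjusted p = 0.198) did not pass. The call of Srebf2 was lost without any 1 of 6 arrays (adjusted p up to 0.108, without CCI-779 replicate 2), and that of Scap without any of 6 (up to 0.099, without placebo replicate 2).

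In fatty acid synthesis 5 of 22 genes fell and 3 rose, where 6.09% and 11.0% of all genes did. The counts were 3 and 0 without the pair (1.6% and 4.79% of all genes) and 8 and 2 with arrays centred. The desaturase Scd1, an SREBP1 target, changed by −0.59 (SE 0.10, adjusted p = 0.000982), the elongase Elovl1 by −0.98 and acetyl-CoA synthetase Acss2 by −0.49, and these 3 passed without the pair too. Hacd1 (−0.43) and Hacd3 (−0.28) fell with all arrays only. The desaturase Fads2 rose by 0.27 (Elovl4 and Elovl5, chosen after their values were seen, were the other 2 that rose), although the mean over its probe sets differed by −0.01, and Fasn (−0.11) and Acaca (−0.13), the entry enzymes, did not pass. The calls of Acss2 and Fads2 were lost without placebo replicate 5 (adjusted p = 0.0522) and 2 (adjusted p = 0.0535).

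Of 66 tested chromatin modifiers, 17 rose and 0 fell, where 11.0% and 6.09% of all genes did, and the median change was 0.15. With the pair left out, 13 rose and 0 fell (4.79% and 1.6% of all genes), with a median of 0.13. With arrays centred on their median 13 rose and 3 fell (877 and 1227 of all 10454 genes). The lysine methyltransferase Kmt2b read 8.90, 8.84, 8.55, 8.95 and 8.65 under CCI-779 and 7.99, 7.91, 8.05, 7.76 and 8.04 under placebo. No array crossed, replicates 2 and 5 lay among the others, and the rise was 0.83 (SE 0.09, adjusted p = 7.61e-05). Its relative Kmt2a read 9.53, 10.30, 9.31, 9.44 and 10.57 against 8.60, 8.32, 8.61, 8.32 and 8.57 and rose by 1.35 (adjusted p = 0.000754), and here replicates 2 and 5 were well above the other treated arrays. The remodelling subunit Smarcc2 read 10.34, 11.26, 10.17, 10.61 and 11.02 against 9.42, 9.41, 9.43, 9.52 and 9.52 and rose by 1.22 (adjusted p = 0.000599). The methyltransferase Ehmt2 (0.38) and the remodellers Chd3 (0.68) and Ep400 (0.42) also rose in both fits. Crebbp (0.03), Hdac1 (−0.18) and Ezh2 (0.00) did not pass.

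Of 40 genes of RNA polymerase II, Mediator and elongation, 7 rose and 2 fell (6 and 4 with arrays centred), where 11.0% and 6.09% of all genes did. Without the pair 5 rose and 0 fell, where 4.79% and 1.6% of all genes did. The elongation factor Supt6 read 8.15, 8.54, 8.21, 8.500 and 8.34 against 7.04, 6.68, 7.47, 7.01 and 7.82 and rose without overlap by 1.15 (adjusted p = 0.000847), in both fits. Beside Polr2a, the Mediator subunit Med16 (0.53) and the elongation kinase Cdk9 (0.27) rose, while the small polymerase subunit Polr2f fell by 0.35. The second largest subunit, Polr2b, differed by −0.10 (adjusted p = 0.475) and Med1 by −0.02. The calls of Cdk9 and Polr2f did not hold without the pair (adjusted p = 0.0636 and 0.119). The median change of this list, 0.02, was −0.04 with arrays centred.

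Splicing and RNA-binding genes gave 12 risers and 6 fallers of 68, where 11.0% and 6.09% of all genes rose and fell. The counts were 5 and 0 without the pair (4.79% and 1.6% of all genes), and the median of 0.05 was −0.01 with arrays centred. The neuronal RNA-binding protein Elavl4 rose by 0.46 (SE 0.08, adjusted p = 0.00118) and the STAR protein Khdrbs3 by 0.46 (adjusted p = 0.00232), in both fits. The spliceosome subunits Sf3a1 (0.64) and Prpf8 (0.28) rose in both fits, and Elavl1 (0.70) with all arrays only (adjusted p = 0.0554 without the pair). Srsf1 (0.03), Rbfox1 (−0.07) and Tardbp (−0.06), which encodes TDP-43, did not pass on their brightest probe sets, although 2 dimmer ones of Tardbp passed in opposite directions with all arrays (−0.25 and 0.33).

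Of 21 tested genes of polyglutamine diseases and their partners, 9 rose and 2 fell, with a median of 0.18, where 11.0% and 6.09% of all genes rose and fell. Without the pair 5 rose and 0 fell (4.79% and 1.6% of all genes), and with arrays centred 5 and 3 (877 and 1227 of all 10454 genes). Beside Atn1, its relative Rere rose by 0.86 (SE 0.12, adjusted p = 0.000398), the ataxin-1 partner Cic by 0.74 (adjusted p = 0.000846) and the huntingtin partner Hap1 by 0.85 (adjusted p = 0.00267), each in both fits. Cacna1a, the calcium channel subunit of spinocerebellar ataxia type 6, rose by 0.50 with all arrays (adjusted p = 0.0934 without the pair), and Atxn7l3, a subunit of a deubiquitinase module, by 0.23, a call lost without any 1 of 7 arrays (adjusted p up to 0.0724, without placebo replicate 4). The 2 that fell, Atxn2 and Atxn10, were chosen after their values were seen, and neither passed without the pair. Mouse Atxn3 read 8.61, 8.41, 8.38, 8.48 and 8.13 under CCI-779 and 8.41, 8.05, 8.07, 8.06 and 8.34 under placebo, and its difference of 0.22 did not pass (SE 0.09, adjusted p = 0.13). Atxn1 (−0.02), Atxn7 (0.11) and Tbp (−0.16) did not pass either.

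Among 46 deubiquitinases 5 rose and 0 fell, led by Usp11 at 0.60 (adjusted p = 0.000731), Usp31 at 0.43 and Usp29 at 0.52, which also passed without the pair. The share that rose is close to that of all genes, of which 11.0% rose and 6.09% fell (4.79% and 1.6% without the pair). With arrays centred 3 of the deubiquitinases rose and 2 fell. Of 67 ubiquitin ligases 10 rose and 3 fell, 4 and 2 without the pair and 7 and 7 with arrays centred. Trim28, a corepressor, rose by 0.51 (SE 0.07, adjusted p = 0.000313) and Huwe1 by 0.47, and Rnf157 fell by 0.49 (adjusted p = 0.000359), all 3 in both fits. Of 41 proteasome subunits 4 fell and 1 rose (11 and 0 with arrays centred). Psmb3 changed by −0.50 (SE 0.10, adjusted p = 0.00347) and was the 1 that passed without the pair, and Psma5 changed by −0.33 and Psmc1 by −0.25.

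Of 46 heat shock proteins and cochaperones 6 rose and 3 fell, shares near the 11.0% and 6.09% of all genes. The counts were 3 and 2 without the pair (4.79% and 1.6% of all genes). With arrays centred they were 5 and 8 (877 and 1227 of all 10454 genes). The small heat shock protein Cryab, made by oligodendrocytes and astrocytes, read 11.17, 11.35, 11.45, 11.18 and 11.23 under CCI-779 and 11.80, 11.94, 11.98, 11.86 and 12.21 under placebo, with no overlap and replicates 2 and 5 unremarkable. It fell by 0.68 (SE 0.09, adjusted p = 0.000378) and changed by −0.69 without the pair (adjusted p = 0.00492). The inducible Hspa1b fell by 0.69 with all arrays (adjusted p = 0.00852) but not without the pair (adjusted p = 0.055), and the cochaperone Bag4 rose by 0.36 in both. Hspa8 (−0.08), Hsp90aa1 (−0.01) and Dnajb1 (−0.15) did not pass. In the unfolded protein response and among ATF4 targets, 1 of 31 rose and 3 fell, 1 and 2 without the pair and 1 and 5 with arrays centred. The amino acid transporter subunit Slc7a5 read 8.19, 8.94, 7.97, 8.45 and 8.77 against 7.70, 7.41, 7.32, 7.33 and 7.78 and rose without overlap by 0.95 (adjusted p = 0.00255), also without the pair (0.69, adjusted p = 0.0326). Atf4 itself, the transcription factor whose translation complex 1 raises, changed by −0.58 (adjusted p = 0.0114) with all arrays and −0.42 without the pair (adjusted p = 0.103), and the chaperones Hspa5 (−0.37) and Canx (−0.26) fell. Ddit3 (−0.24), Xbp1 (−0.14) and Asns (−0.20) did not pass.

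Of 47 scaffold and adhesion genes of the synapse 18 rose and 5 fell, where 11.0% and 6.09% of all genes did (4.79% and 1.6% without the pair). The counts were 12 and 0 without the pair, and the median change was 0.17 and 0.18. With arrays centred 16 rose and 9 fell. Nlgn2, the neuroligin of inhibitory synapses, read 10.79, 11.32, 10.40, 10.91 and 11.10 against 9.68, 9.38, 9.86, 9.75 and 10.04 and rose without overlap by 1.16 (SE 0.20, adjusted p = 0.00145). Beside Apba1, the postsynaptic scaffolds Dlg2 (0.87), Dlgap1 (0.49), Dlgap3 (1.02) and Dlgap4 (0.60) rose in both fits. Dlg4, which encodes the major scaffold PSD-95, differed by 0.25 (adjusted p = 0.624), Nlgn1 by 0.00 and Cask by 0.23, and none of these passed.

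Of 53 genes of vesicle fusion and endocytosis 10 rose and 3 fell, where 11.0% and 6.09% of all genes did. Without the pair the counts were 7 and 1 (4.79% and 1.6% of all genes). The vesicle SNARE Vamp2 read 12.89, 12.69, 12.69, 12.73 and 12.76 against 12.07, 11.33, 11.81, 11.32 and 11.85, and the arms did not overlap. Vamp2 rose by 1.07 (SE 0.12, adjusted p = 9.64e-05) and by 1.09 without the pair (adjusted p = 0.00141). Synaptophysin, Syp, lay between 12.62 and 13.03 in the treated arrays and between 11.50 and 11.999 in the controls and rose by 1.04 (SE 0.12, adjusted p = 0.00013). Synapsins Syn1 (0.42) and Syn2 (0.49) and complexin Cplx2 (0.61) rose in both fits, but another of the 3 tested probe sets of Cplx2 passed as lower with all arrays (−0.57, adjusted p = 0.0262, and 0.162 without the pair). The plasma membrane SNAREs Snap25 (0.01) and Stx1a (−0.20) and the calcium sensor Syt1 (−0.20) did not pass.

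**Figure D3:**
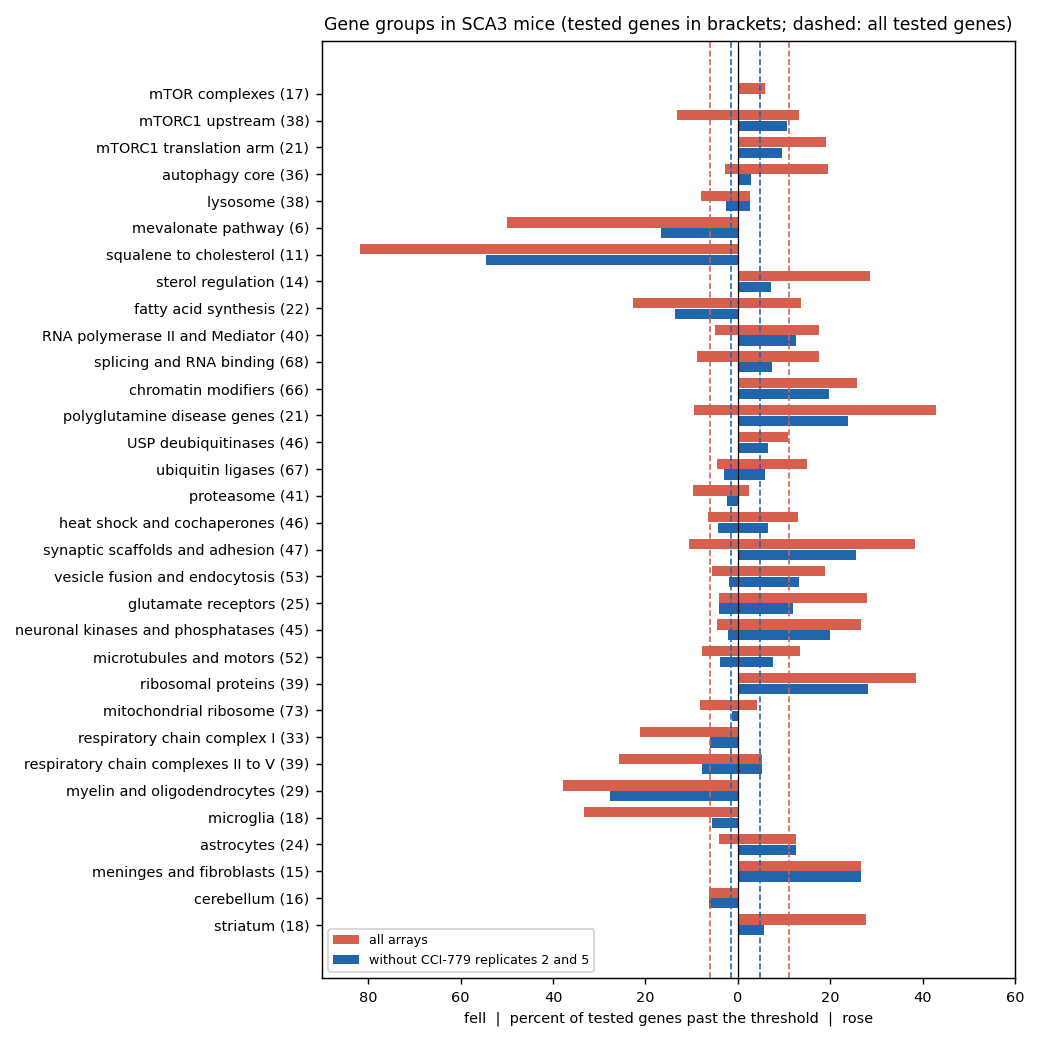
The bars give the percentage of tested genes of each group that rose (right of 0) or fell (left of 0), the upper bar with all arrays and the lower without CCI-779 replicates 2 and 5, with the number of tested genes in brackets. Dashed lines give the same percentages for all 10454 genes, 11.0 and 6.09 with all arrays and 4.79 and 1.6 without the pair, and the bars for squalene to cholesterol reach farthest to the left of them in both.

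Glutamate receptor genes gave 7 risers and 1 faller of 25, and 3 and 1 without the pair. Beside these and the next counts, 11.0% of all genes rose and 6.09% fell (4.79% and 1.6% without the pair). The AMPA receptor subunit Gria1 rose by 0.55 (SE 0.09, adjusted p = 0.00144), the kainate subunit Grik5 by 0.93 (adjusted p = 0.00298) and the metabotropic receptor Grm5 by 0.40, all in both fits. Gria2 (0.16), Grin2b (−0.15) and Grm3 (−0.21) did not pass. Of 19 genes of GABA and glycine transmission 3 rose and 1 fell, and 2 and 0 without the pair. The synthesis enzyme Gad2 rose by 0.40, but its mean over probe sets differed by −0.07, and the receptor Gabbr1 rose by 0.35. Of 33 calcium and sodium channel and pump genes 9 rose and 3 fell, or 5 and 1 without the pair, led by the fall of the sodium channel subunit Scn2b by 0.61 (adjusted p = 0.000423) and the rise of the sodium pump subunit Atp1b2 by 0.55 (adjusted p = 0.00058). Of 38 potassium channel genes 5 rose and 1 fell (2 and 0 without the pair, 2 and 5 with arrays centred), and Kcnh3 rose by 0.42 (adjusted p = 0.00193) in both fits.

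Of 45 neuronal kinases and phosphatases 12 rose and 2 fell, where 11.0% and 6.09% of all genes did. Without the pair the counts were 9 and 1 (4.79% and 1.6% of all genes). The microtubule affinity kinase Mark2 read 10.42, 10.50, 10.32, 10.37 and 10.39 under CCI-779 and 9.93, 9.82, 9.98, 9.79 and 9.87 under placebo without overlap and rose by 0.52 (SE 0.06, adjusted p = 8.71e-05). Mark1 (0.49), the activator of Cdk5, Cdk5r1 (0.51), the kinase Gsk3b (0.47) and the scaffold Mapk8ip3 (0.43) rose in both fits. Camkk2, which activates AMP-activated kinase, fell by 0.52 (adjusted p = 0.000491), although another probe set passed as higher (0.41, adjusted p = 0.00932) and the mean over its probe sets differed by 0.01. Among 52 genes of microtubules and motors 7 rose and 4 fell, shares near those of all genes (11.0% and 6.09%), or 4 and 2 without the pair and 4 and 8 with arrays centred. Map1a rose by 1.18 (adjusted p = 0.00212) and the dynein heavy chain Dync1h1 by 0.29, while the tubulin Tuba1a fell by 0.32 (adjusted p = 0.000597). Mapt, which encodes tau, differed by 0.14 (adjusted p = 0.155).

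The cytosolic ribosomal proteins that passed were all higher. Only 39 of the 77 listed had a probe set of their own that was tested. Of these 15 rose and 0 fell, where 11.0% and 6.09% of all genes did, and the median was 0.17. With the pair left out 11 rose and 0 fell (4.79% and 1.6% of all genes), and with arrays centred 9 and 0 (877 and 1227 of all 10454 genes). Rpl19 read 13.26, 13.25, 13.17, 13.26 and 13.18 under CCI-779 and 12.83, 13.04, 12.89, 12.68 and 12.94 under placebo and rose without overlap by 0.35 (SE 0.07, adjusted p = 0.0026). Rps10 (0.36) and Rpl4 (0.30) were of similar size. Ribosomal protein genes have many near-identical processed copies, so a probe set may read more than 1 of them.

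Genes of the respiratory chain fell more often than they rose. Of 33 subunits of complex I 7 fell and 0 rose, with a median of −0.13, and of 39 of complexes II to V 10 fell and 2 rose, with a median of −0.12. Among all genes 6.09% fell and 11.0% rose. Without the pair the falls in these complexes were 2 and 3, where 1.6% of all genes fell, and with arrays centred 18 and 17. Ndufa12 of complex I changed by −0.37 (SE 0.05, adjusted p = 0.000201) and Cox5b of complex IV by −0.40 (adjusted p = 0.000378), both in both fits. Uqcrc1 of complex III rose by 0.36 and Cox7a2l by 0.34. The mitochondrial ribosome gave 3 risers and 6 fallers of 73, or 3 and 16 with arrays centred, with Mrpl1 (−0.42, adjusted p = 0.00691) the 1 call without the pair. In glycolysis and the citric acid cycle 5 rose and 4 fell of 35, and 3 and 2 without the pair. Citrate synthase, Cs, fell by 0.32 (adjusted p = 0.00178), although another probe set passed as higher (0.30, adjusted p = 0.00214) and the mean over its probe sets differed by 0.03. Idh1, the cytosolic isocitrate dehydrogenase that supplies NADPH, fell by 0.65 (adjusted p = 0.00304).

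In bulk tissue, fewer cells of a type and less RNA per cell cannot be told apart, and this bears on the marker lists. Markers of brain cells were bright, with mean levels of 15.15 for neuronal Snap25, 15.33 for Mbp of myelin and 9.68 for Gfap of astrocytes. Of 22 blood and pituitary markers 12 were under the limit for testing and 5 were tested, with 0 higher and 0 lower. The mean of these 5 was 6.15 and 7.12 in placebo replicates 1 and 2, 4.49 to 4.70 in the other 3 controls and 4.48 to 5.97 in the treated arrays, and its part in the other results was not tested. Of 29 tested myelin and oligodendrocyte genes 11 fell and 0 rose, with a median of −0.24, where 6.09% of all genes fell and 11.0% rose (1.6% and 4.79% without the pair). With the pair left out 8 fell and the median was −0.38, a larger shift. Cnp, an enzyme of the myelin sheath, read 13.44, 13.37, 13.57, 13.40 and 13.47 under CCI-779 and 13.93, 13.72, 14.16, 14.12 and 14.19 under placebo, and every treated array lay below every control. The fall was 0.57 (SE 0.09, adjusted p = 0.000814), and the change −0.55 without the pair (adjusted p = 0.0101). Mal, a lipid raft protein of compact myelin, read 12.24, 12.24, 12.38, 12.09 and 12.32 against 12.82, 12.44, 13.18, 13.01 and 13.32, again without overlap, and placebo replicate 2 was the lowest control for both genes. The sulfotransferase Gal3st1 (−0.60), which completes the lipid that Ugt8a begins, and the lineage factor Olig1 (−0.39) fell too. Mbp (−0.12, adjusted p = 0.142), Olig2 (0.14) and the precursor marker Pdgfra (0.10) did not pass. Sterol enzymes are active in oligodendrocytes, and the part of this list in their change was not tested.

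Microglial genes gave 6 fallers and 0 risers of 18, with a median of −0.24, but 1 faller without the pair. For comparison, 6.09% of all genes fell and 11.0% rose (1.6% and 4.79% without the pair). With all arrays the astrocyte, endothelial and choroid plexus counts given below are near these shares. The receptor Gpr34, of the P2Y family, read 5.18, 3.96, 5.61, 5.24 and 4.49 against 6.11, 5.36, 6.16, 6.24 and 6.59, with the lowest values in replicates 2 and 5, and fell by 1.20 (adjusted p = 0.00653) or changed by −0.75 without them (adjusted p = 0.0568). C1qb fell by 0.56 and was the 1 call without the pair (adjusted p = 0.0235), and the growth factor receptor Csf1r changed by −0.40. Aif1 (−0.01) and Cx3cr1 (−0.02) did not pass. Astrocyte markers gave 3 risers and 1 faller of 24 (3 and 0 without the pair), with the glutamate transporter Slc1a2 higher by 0.28 (adjusted p = 0.00288), and Gfap, which marks reactive astrocytes, differed by 0.56 without passing (adjusted p = 0.288). Meningeal and fibroblast genes gave 4 risers and 0 fallers of 15, with a median of 0.48 where that of all genes was 0.00, and the same counts without the pair. Aldh1a2, which makes retinoic acid in the meninges, rose by 0.58 (adjusted p = 0.00367), fibronectin, Fn1, by 0.48 and biglycan, Bgn, by 0.61, and the collagens Col1a1 (0.24) and Col3a1 (0.45) did not pass. Of 21 endothelial and pericyte markers 2 rose and 1 fell, where Spock2 (1.30) and Itm2a (−0.45) passed in both fits. Of 12 choroid plexus markers 1 rose and 1 fell, none passed without the pair, 1 and 3 passed with arrays centred, and the transport protein Ttr differed by −0.09. Their part in the other results was not tested.

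Markers of brain regions were read as well. Of 16 cerebellar markers 0 rose and 1 fell, in both fits, with a median of −0.19. With all arrays this share of falls is near the 6.09% of all genes, of which 11.0% rose (1.6% and 4.79% without the pair). The faller was Pcp4 of Purkinje cells (−0.27, adjusted p = 0.00711), and Pcp2 (−0.40) and the granule cell gene Gabra6 (−0.38) did not pass. Of 18 striatal markers 5 rose and 0 fell (1 and 0 without the pair), with the adenylyl cyclase Adcy5 at 0.59 (adjusted p = 0.00228) passing in both fits, while Drd1 (0.23), Penk (0.15) and Pde10a (−0.15) did not pass. Of 24 cortical and hippocampal markers 1 rose and 2 fell, none without the pair, and Slc17a7, the vesicular glutamate transporter of the cortex, differed by 0.90 without passing (adjusted p = 0.158). The part of dissection in these values was not tested.

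Immediate early genes, which neuronal activity induces, were spread widely. Fos read 6.54, 6.89, 6.43, 9.18 and 8.66 under CCI-779 and 7.74, 6.92, 8.74, 9.02 and 9.38 under placebo, a wide spread in both arms, and its difference of −0.82 did not pass (SE 0.56, adjusted p = 0.34). Arc read 6.76, 7.22, 6.50, 9.05 and 8.81 against 6.81, 5.84, 7.43, 7.42 and 8.61 and differed by 0.45 (adjusted p = 0.617). In both genes replicates 4 and 5 were the highest treated arrays. Of 26 immediate early genes 2 rose and 2 fell, none of them without the pair, where 11.0% and 6.09% of all genes rose and fell with all arrays. Of 19 clock genes 4 rose and 1 fell, and 2 and 0 without the pair (4.79% and 1.6% of all genes). Hlf rose by 0.47 (adjusted p = 0.00116) and Per3 by 0.35 (adjusted p = 0.00271) in both fits, and Per1 by 1.19, a call lost without any 1 of 4 arrays (adjusted p up to 0.0739, without CCI-779 replicate 2). Arntl (−0.02) and Dbp (−0.04) did not pass. Of 19 glucocorticoid-responsive genes only Per1 rose, with 0 called without the pair, and Fkbp5 differed by 0.47 (adjusted p = 0.204). Growth factor receptor Fgfr1 rose by 1.07 (adjusted p = 0.00363), and Ntrk2, the receptor of brain-derived neurotrophic factor, differed by −0.14.

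The same contrast in wt mice rests on other arrays and shares the fitted spread. Array measures moved with the drug in wt as well. Hybridisation spike-ins averaged 10.23 under CCI-779 and 11.13 under placebo, without overlap of the arms. The 3′ minus 5′ difference of GAPDH averaged −0.28 and −0.54, also without overlap. The part of these measures in what the genotypes share was not tested. Among the wt arrays CCI-779 replicate 1 stood apart, with a score of 66.3 on the first principal component and an actin 3′ minus 5′ difference of 2.55, so wt values are given with it and without it. At the level of probe sets 2435 passed in wt (11.9%), 2002 higher (9.78%) and 433 lower (2.11%). Of the 1151 genes that rose in SCA3, 1137 had a positive change in wt (98.8%) and 623 rose there too (54.1%). These 623 are 51.8% of the 1203 genes that rose in wt (11.5% of all genes). Without that array 782 genes rose in wt (7.48%), and these hold 467 of the 1151 (40.6%). Of the 637 that fell in SCA3, 558 had a negative change in wt (87.6%) and 91 fell there (14.3%), which is 53.2% of the 171 that fell in wt (1.64%). Without the array these were 575 and 94, and 164 genes fell in wt (1.57%). No gene passed in opposite directions, with or without it. Over all 10454 genes, 72.1% had the same sign in both genotypes, and 74.0% without the array. The median change of the genes that fell in SCA3 was −0.32 there and −0.15 in wt, and that of the genes that rose was 0.44 and 0.37, and these genes were chosen on the SCA3 values.

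Leading risers were shared with wt. Fam163b changed by 2.61 in wt (adjusted p = 0.0028) and by 2.25 without wt CCI-779 replicate 1, Rph3a by 1.10 (adjusted p = 0.000217) and 1.04, and Ulk1 by 0.998 (adjusted p = 0.00088) and 0.97. Of the 15 named risers 13 passed in wt, or 10 without that array. Of the 15 named fallers only Fdps passed in wt (−0.69, adjusted p = 0.0213), and without the array it no longer did (−0.61, adjusted p = 0.0508). The median change in wt of the enzymes from squalene to cholesterol was −0.22 with 1 called, and that of the myelin list −0.06 with 1 lower and 1 higher. Without the array the medians were −0.27 and −0.03.

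The interaction, which tests whether the drug effects in the 2 genotypes differ, passed for 0 of 20473 probe sets (0.0%) in the limma fit. An unadjusted p under 0.05 was found for 1573, with a lowest adjusted p of 0.37 (0.0659 to 0.636 over its alternatives, each with 0 passed). The 4 genes with the smallest p are given as not passed. Fubp3, which encodes a single-stranded DNA-binding protein, changed by −0.40 in SCA3 and 0.37 in wt (interaction adjusted p = 0.419), Fam81a by 0.09 and −0.88 (interaction adjusted p = 0.419), and Haus3 by −0.69 and 0.05 (interaction adjusted p = 0.419). The SCA3 call of Fubp3 was lost without CCI-779 replicate 2 or placebo replicate 1 or 2 (adjusted p up to 0.0633). Ybx3, an RNA- and DNA-binding cold shock protein, read 10.09, 9.99, 10.09, 10.04 and 10.01 in SCA3 under CCI-779 and 10.59, 10.76, 10.56, 10.71 and 10.64 under placebo, without overlap. It fell by 0.61 in SCA3 (adjusted p = 8.71e-05) against a change of −0.19 in wt (interaction adjusted p = 0.419). Without wt CCI-779 replicate 1 the wt changes of these 4 genes were 0.32, −0.79, −0.01 and −0.195, none of their interactions passed (adjusted p = 0.53 at the lowest), and the lowest over all probe sets was an adjusted p of 0.319. For Nsdhl the interaction was −0.48 (adjusted p = 0.582), for Mal −0.55 (adjusted p = 0.557) and for Bdnf −0.48 (adjusted p = 0.73). A drug effect that differs between SCA3 and wt was thus not detected for any probe set with these arrays, and a p above the threshold does not show equal effects.

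**Figure D4:**
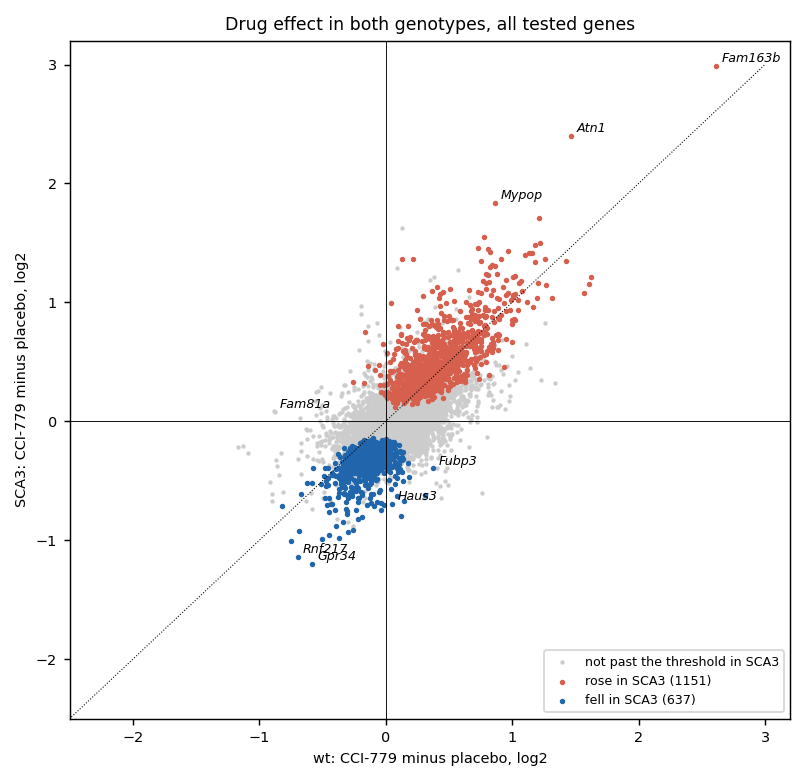
Each point is 1 of 10454 genes, with its change under CCI-779 in wt mice on the x axis and in SCA3 mice on the y axis, both log2, and the dotted line marks equal change. The 1151 genes that rose and the 637 that fell in SCA3 are coloured and were chosen on the y axis, Fam163b lies near the line at 2.61 and 2.99, and most coloured points share the sign of their wt change.

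Probe sets of 1 gene mostly passed in the same direction, but not always. Of 4567 genes with more than 1 tested probe set, 321 had more than 1 that passed. In 257 of these 321 they passed in the same direction and in 64 in opposite directions (6 of 84 in opposite directions without replicates 2 and 5). Prkaca, the catalytic subunit of protein kinase A, shows the widest gap. Its brighter probe set (mean 11.86) read 11.80, 11.42, 11.80, 11.78 and 11.43 under CCI-779 and 12.04, 12.001, 12.06, 11.96 and 12.08 under placebo and changed by −0.38 (adjusted p = 0.00727). The dimmer one (mean 9.02) read 9.39, 10.57, 9.39, 9.62 and 10.56 against 8.49, 8.35, 8.72, 8.11 and 8.65 and changed by 1.44 (adjusted p = 0.00102). On the first the treated arrays are lower and on the second they are higher, most of all in replicates 2 and 5. The splicing factor Sf1 changed by −0.32 on its brightest and 0.97 on another probe set, the RNA demethylase Alkbh5 by −0.41 and 0.95, the actin bundler Fscn1 by −0.44 and 0.82, and the transporter Abcc5 by −0.42 and 1.10. The lower calls of Sf1 and Abcc5 were lost without any 1 of 6 and of 4 arrays (adjusted p up to 0.0923 and 0.065). Without replicates 2 and 5 the lower probe sets of Prkaca, Sf1 and Abcc5 did not pass (adjusted p = 0.0689, 0.275 and 0.163) and the higher ones given here did. The brighter probe set was the lower one in 7 of the 8 genes plotted, and the exception is Chst2. Which part of each transcript a probe set reads was not analysed here.

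**Figure D5:**
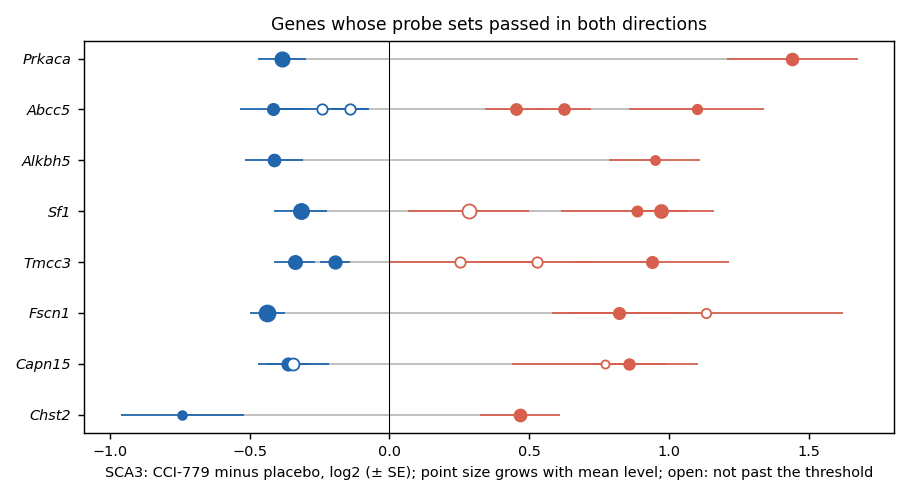
Each row is a gene with tested probe sets that passed in both directions, each point is 1 probe set with its change on the log2 scale and SE, larger points have a higher mean level, and open points did not pass. Prkaca spans from −0.38 to 1.44, and in every row but Chst2 the largest passing point lies left of 0.

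Features outside the expression values also differed between the genes that rose and those that fell. The GC content of the promoter window, known for 81.1% of tested genes, had a median of 64.0% among the genes that rose, 60.8% among those that fell and 61.7% among all. In 5 equal bins from the lowest to the highest promoter GC, the share of genes that rose was 6.33%, 9.58%, 10.8%, 11.9% and 15.7%, and the share that fell was 5.63%, 7.22%, 7.01%, 5.96% and 4.35%. The same shares for the rise in wt were 8.68% in the lowest and 16.4% in the highest bin. The type of probe set moved with the direction as well. Of 514 genes read from a probe set of the type that shares probes with other transcripts, marked x in the platform's names, 19.5% fell and 4.47% rose, against 4.17% and 11.5% of the 7675 genes with fully specific probe sets. In wt these shares for the falls were 7.78% and 1.0%. The probe set types marked a and s, which read 1509 and 756 genes, also held more falls than the fully specific sets. In SCA3 9.74% and 9.26% of these genes fell, and 11.2% and 10.2% rose. Rnf217, Elovl1, Tpmt, Hmgcs1, Hsd17b7 and Cnp are read from sets marked x, and the part of cross-hybridisation in their changes was not tested.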

How the data were processed

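Biotin-labelled brain RNA was hybridised to Affymetrix arrays, 1 per sample. The deposited values are intensities on a linear scale that the authors obtained with GCRMA, per the submitters' processing notes (version not given in the sources used here), with mean intensities of 434 to 463 per array. No depth applies to arrays, and their number limits the precision. log2 of the deposited intensities was taken with no pseudocount, and 64 control probe sets were left out. Of the other 45037, 34945 carry 1 gene symbol, 932 several and 9160 none in the platform annotation, and only those with 1 symbol name a gene. limma 3.58.1 in R 4.3.3 was fitted with 4 group means over the 19 arrays (residual df 15, prior df 2.59), and the code was tested on simulated data. The comparison's members and gene lists were chosen with earlier results of these data known. Named are the 15 genes with the largest rise and fall called with and without CCI-779 replicates 2 and 5, up to 6 called genes per list by p and up to 3 more for their role, 15 genes named whatever their values, the 4 smallest interaction p-values and 8 genes with opposed probe sets. Alternatives covered the filter, scaling, variance model, array weights, arrays in the fit, replicate block, probe set summary, threshold and each array left out. Promoter windows are from RefSeq (GRCm38.p6), and nothing maps the probe sets onto that build here.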

Additional observations from a re-analysis of the deposited data

Results flagged for a closer look

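Each value here is the log2 intensity of a single array whose gap to the nearest other array of its group is more than 0.710 of the group's range, the limit of Dixon's test for 5 arrays. Of 726 sets of 5 arrays from 363 named genes, 30 were past that limit, and chance alone gives about 1 in 20. Among CCI-779 arrays the lowest value stood apart for Tpmt (5.04), Haus3 (5.49), Scap (10.05), Fubp3 (7.88), Mvk (6.01), Acaca (8.90), Grin2b (8.77), Kcnj10 (9.69) and Folr1 (3.59). The highest CCI-779 value stood apart for Usp10 (9.47), the calcium pump Atp2b2 (12.37), Srebf1 (9.16), Nlgn1 (9.16), Fkbp5 (9.66) and Cx3cr1 (8.48). Among placebo arrays the highest value stood apart for Klhl4 (9.40), Usp10 (9.28), Psma5 (11.49), Grm5 (11.33), Pcp4 (14.19), Eif4ebp1 (4.28), Ezh2 (4.83), Dbp (12.20), Aif1 (6.14) and Cx3cr1 (8.59). The lowest placebo value stood apart for Psmc5 (11.53), Rps29 (15.23), Slc1a2 (13.56), the lysosomal channel Mcoln1 (9.71) and Usp14 (10.37).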

How the results depend on the processing

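The count of 3107 probe sets past the threshold was 1917 (1255 higher, 662 lower) with a replicate block on the 10 SCA3 arrays, 1106 (831 and 275) at an adjusted p of 0.01, 782 (657 and 125) at 1.5-fold or more, 1203 (914 and 289) with CCI-779 replicates 2 and 5 left out, and 1956 (without SCA3 CCI-779 replicate 2) to 4048 (without wt CCI-779 replicate 1) with each array left out in turn. The labels state no pairing by replicate number, and the main fit used none. In their deviations from the group means CCI-779 and placebo arrays of the same number correlated at 0.29, −0.09, −0.13, 0.15 and 0.12. This was above every correlation with another number for replicates 1, 4 and 5 (at most 0.14, 0.10 and 0.08) and not for 2 and 3. These values do not settle whether the numbers mark pairs, and a batch shared by number was not tested. With probe sets averaged by gene 1541 genes passed, against 1788 read from the brightest probe set. The other 8 settings kept the count of probe sets within 1.5 times. The 1203 probe sets without the pair became 2335 when wt CCI-779 replicate 1 was also left out and 714 without the filter, and their 914 rises and 289 falls became 751 and 598 with arrays centred and 892 and 468 after quantile normalization again. The filter and scalings of that fit, and the array measures without the pair, in which the actin measure was higher by 0.22, were chosen after seeing the data. Of 239 named genes that passed, 101 lost the call without the pair, 71 with the replicate block, 51 with probe sets averaged by gene, 34 without the filter, 28 with the 10 SCA3 arrays only, 15 with arrays centred, 13 with array weights and 11 after quantile normalization, and 52 lost it when some single array was left out. The 51 do not include 16 genes whose change took the opposite sign, and 172 of the 239 kept the call with its sign. With probe sets averaged by gene the change took the opposite sign for 16 genes, at −0.0054 for Fads2, −0.0026 for Hspa12a, −0.068 for Gad2, −0.058 for Cacna2d1, 0.015 for Camkk2, 0.16 for Nr4a2, 0.027 for Cs, −0.011 for Rgs5, 0.53 for Prkaca, 0.23 for Abcc5, 0.27 for Alkbh5, 0.46 for Sf1, 0.24 for Tmcc3, 0.51 for Fscn1, 0.23 for Capn15 and −0.14 for Chst2. None of these 239 reversed under another setting. Of 47 lists, 26 counts of rises and 27 of falls moved by more than 1.5 times without the pair and 9 and 22 with arrays centred. The cause of these shifts was not tested.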
